A study of Mus musculus with 5 samples.

Results

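The endothelium, the single cell layer that lines the aorta, was followed through 32 marker genes in RNA of whole mouse thoracic aorta. The genes were a fixed list of endothelial markers, and for each the brightest probe set assigned to that gene alone was taken, by its mean over the 5 arrays. All 32 were measured, among 18193 genes with such a probe set, and 58 probe sets in all belonged to them. The arrays were Affymetrix Mouse Genome 430 2.0 chips, which read a transcript with sets of short probes. Both groups were male C57BL/6 mice: 2 arrays came from non-transgenic littermates (the controls), and 3 from mice carrying P467L, a dominant negative human PPARγ, in the vascular smooth muscle. The transgene was driven by the smooth muscle myosin heavy chain promoter, so the labels place it in the muscle layer and not in the endothelium. The sources used here give no ages, and whether the mouse Pparg probe set reads the human transgene is not known, so the labels were not checked by it. Each array held an independent pool of RNA of 6 to 8 aortas, so the spread between arrays is a spread between pools and not between animals. Values are on the log2 scale, and a difference is the P467L mean minus the control mean.

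Endothelial cells hold the vessel closed through junction proteins, sense growth factors and blood flow through surface receptors, and keep blood fluid through proteins of the coagulation system. Their identity is held by transcription factors of the ETS and SOX families, and Klf2 is the factor best known for its response to laminar flow. PPARγ is a nuclear receptor that binds DNA together with RXR, and smooth muscle and endothelium exchange signals across the inner elastic layer.

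The levels were checked against the label of the list. Of the 32 genes, 26 lay above the median level of all genes and 16 in the upper quartile, at 9.18 or more. Pecam1, the adhesion molecule used most often to stain endothelium, measured 11.28 and 11.27 in the control arrays and 11.24, 11.11 and 11.20 in the P467L arrays. Prox1, the transcription factor that specifies lymphatic endothelium, was the 1 gene in the lowest quartile, with values from 3.62 to 3.91, and it was not tested against background. In a bulk sample of the vessel wall, fewer endothelial cells and less RNA per endothelial cell cannot be told apart.

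Most endothelial genes lay close to the control level in P467L aortas, while Emcn stood lower and Cldn5 and Klf2 higher. Differences ran from -1.05 for Emcn to 0.73 for Cldn5, with 20 genes on the positive side, 12 on the negative side and a median of 0.08, against a median of 0.02 over all genes. Of all genes, 56% were on the positive side. Limma, a linear model fitted to every probe set with a variance shared in part across them, called 0 of the 32 at an adjusted p of 0.05, where 0% of the 45037 probe sets were called. At an unadjusted p of 0.05 there were 7 of the 32, 6 higher (Klf2, Cldn5, Plvap, Thbd, Tie1 and Cd34) and 1 lower (Emcn). Over all genes 6.94% were higher at that level and 2.51% lower, and among genes at or above the median level the shares were 11.2% and 2.76%. A difference of at least 0.4 in either direction was measured for 3 of the 32 and for 3.85% of all genes.

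In 12 of the 32 genes the 3 P467L arrays lay above both control arrays, and in 3 they lay below both. The same was measured for 16.1% and 6.55% of all genes, and for 26.4% and 6.04% of genes at or above the median level, where most of the 32 lie. The share of endothelial genes on the higher side was 37.5%, and the difference between these shares was not tested. With array medians set equal the split was 15 higher and 1 lower, and after a second quantile normalization it was 9 higher and 6 lower. At the unadjusted level the split was 9 and 1 with centring and 3 and 2 after the second quantile normalization. Over the chip 2989 and 2739 probe sets passed that level under these settings, against 3353 in the main fit. Shares of all genes without overlap were not counted under these settings. With centring the median was 0.12 for the list and 0.057 over all genes. After the second quantile normalization it was 0.04 for the list and 0.018 over all genes.

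**Figure D1:**
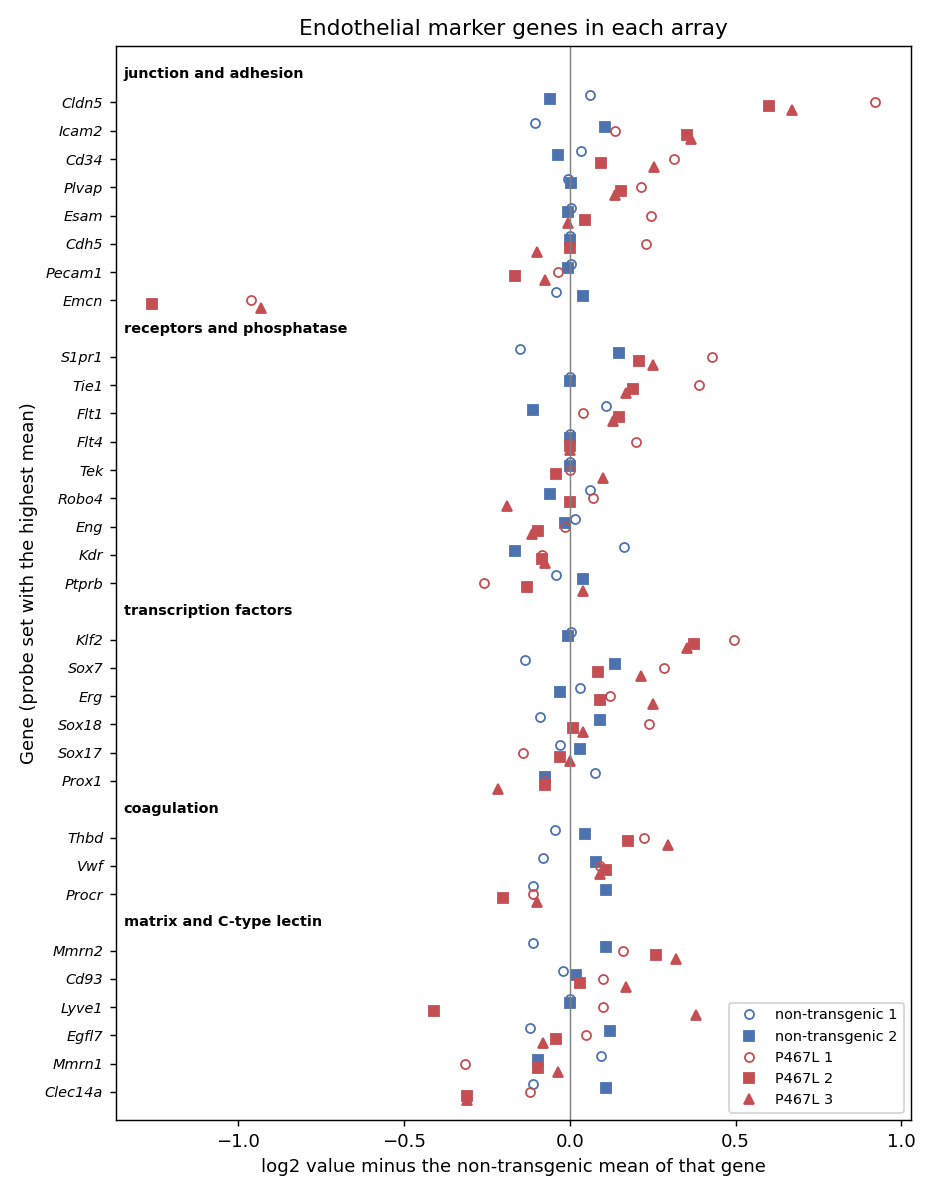
Each row is 1 endothelial gene grouped by role; the horizontal axis is the log2 value in each array minus the mean of the 2 control arrays, with blue symbols for control and red for P467L arrays, offset slightly in height so that they can be told apart. The red symbols of Cldn5 and Klf2 lie to the right of the blue ones and those of Emcn to the left, while for most other genes the colours lie within about 0.4 of each other.

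**Figure D2:**
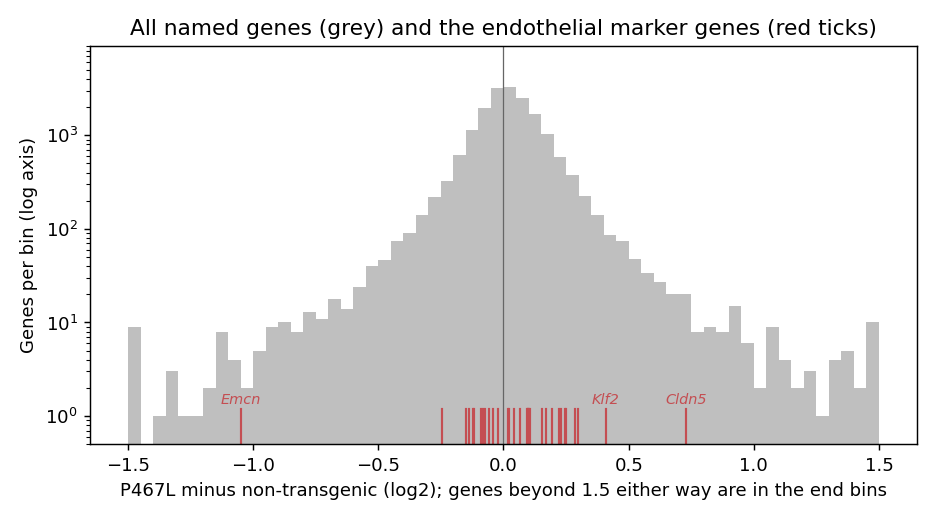
Grey bars count the 18193 genes by their P467L minus control difference on the log2 scale, with a logarithmic count axis, and red ticks mark the 32 endothelial genes. Emcn at -1.05, Klf2 at 0.41 and Cldn5 at 0.73 lie outside the bulk of the list, whose median is 0.08.

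Emcn, Cldn5 and Klf2 had the largest differences of the list, and the 250 bases that precede their annotated starts are shown for that reason. The sequences are from RefSeq on GRCm38.p6, in a set of windows that covered 17 of the 32 genes. They read 5′ to 3′ on the gene's strand, which is the plus strand for all 3 genes. Emcn lies at chr3:137340828-137341077, Cldn5 at chr16:18776597-18776846 and Klf2 at chr8:72318812-72319061. Capitals mark AGGAAG on either strand, a core of the motif bound by ETS factors such as Erg.
Emcn: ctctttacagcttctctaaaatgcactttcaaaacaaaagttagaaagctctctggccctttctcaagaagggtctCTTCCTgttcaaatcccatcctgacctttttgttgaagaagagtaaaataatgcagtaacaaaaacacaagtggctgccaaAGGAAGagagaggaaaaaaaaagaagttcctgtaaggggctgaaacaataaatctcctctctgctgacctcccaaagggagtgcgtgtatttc
Cldn5: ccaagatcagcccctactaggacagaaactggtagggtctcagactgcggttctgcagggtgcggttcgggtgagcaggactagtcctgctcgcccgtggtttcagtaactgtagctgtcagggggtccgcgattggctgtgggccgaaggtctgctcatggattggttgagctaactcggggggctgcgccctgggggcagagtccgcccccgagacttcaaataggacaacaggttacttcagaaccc
Klf2: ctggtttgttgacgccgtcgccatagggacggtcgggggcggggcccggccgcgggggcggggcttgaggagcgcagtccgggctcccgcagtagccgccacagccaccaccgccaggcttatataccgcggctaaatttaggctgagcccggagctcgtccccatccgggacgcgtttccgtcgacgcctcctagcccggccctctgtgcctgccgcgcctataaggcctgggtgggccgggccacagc
The Emcn window held 2 such cores and those of Cldn5 and Klf2 held 0. Over all 32851 windows of that length 29.5% held at least 1, and of the 22 windows of the 17 endothelial genes 9 did. CACCC on either strand, a core bound by KLF factors, was found 2 times in the Cldn5 window, 1 time in that of Klf2 and 0 times in that of Emcn, and in 52% of all windows. The sequence ACAAT, a SOX core, was found 1 time in the Emcn window and 0 times in the other two, and in 27.7% of all windows. The DR1 element, a direct repeat of AGGTCA with 1 free base between the copies to which PPARγ and RXR bind, was found in 0 windows of the 17 genes and in 0.0335% of all windows. No searched motif contains another. These counts describe letters in a short window and say nothing of binding.

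Among the 8 junction and adhesion genes, Emcn and Pecam1 were lower and Cldn5, Icam2, Cd34 and Plvap were higher without overlap of the groups. Emcn encodes endomucin, a sialomucin of venous and capillary endothelium that limits leukocyte contact, and it measured 7.58 and 7.66 in the control arrays and 6.66, 6.36 and 6.69 in the P467L arrays. All 3 P467L arrays lay at least 0.89 below both controls. The group means were 6.57 ± 0.18 (SD, n = 3) and 7.62 ± 0.06 (SD, n = 2), which is 2.07-fold lower, with a difference of -1.05 (SE 0.12, 95% interval from -1.38 to -0.72; adjusted p = 0.234 in limma). Emcn had 1 probe set, so no second reading of the gene was at hand. The difference ran from -1.26 to -0.95 over all alternatives of processing and left-out arrays.

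Cldn5 encodes claudin-5, the main tight junction claudin of endothelium. It measured 8.76 and 8.64 in the control arrays and 9.62, 9.30 and 9.37 in the P467L arrays, a gap of 0.54 between the groups. The difference was 0.73 (SE 0.12, 95% interval from 0.41 to 1.05; adjusted p = 0.341 in limma), or 1.66-fold. P467L replicate 1 was the highest array, and without it the difference was 0.64.

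The other adhesion genes differed by less. Icam2, a leukocyte adhesion molecule of resting endothelium, measured 9.54 and 9.75 against 9.78, 10.00 and 10.01 in P467L arrays, and the groups were 0.03 apart. Cd34, a sialomucin shared by endothelium, fibroblasts and blood progenitors, measured 11.17 and 11.10 against 11.45, 11.23 and 11.39. Plvap, which forms the diaphragms of fenestrae and caveolae, measured 9.53 and 9.54 against 9.75, 9.69 and 9.67. Their differences were 0.29 (SE 0.11), 0.22 (SE 0.08) and 0.17 (SE 0.04), and all 3 had an adjusted p of 0.493 or more. Cdh5, the VE-cadherin of adherens junctions, measured 7.70 in both control arrays and 7.93, 7.70 and 7.60 in the P467L arrays. Its groups overlapped, and the difference was 0.04 (SE 0.11), with -0.05 when P467L replicate 1 was left out. Pecam1 lay lower by -0.09 (SE 0.05) with a gap of only 0.03. Esam, an immunoglobulin protein of endothelial junctions, overlapped, with a difference of 0.10 (SE 0.09).

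**Figure D3:**
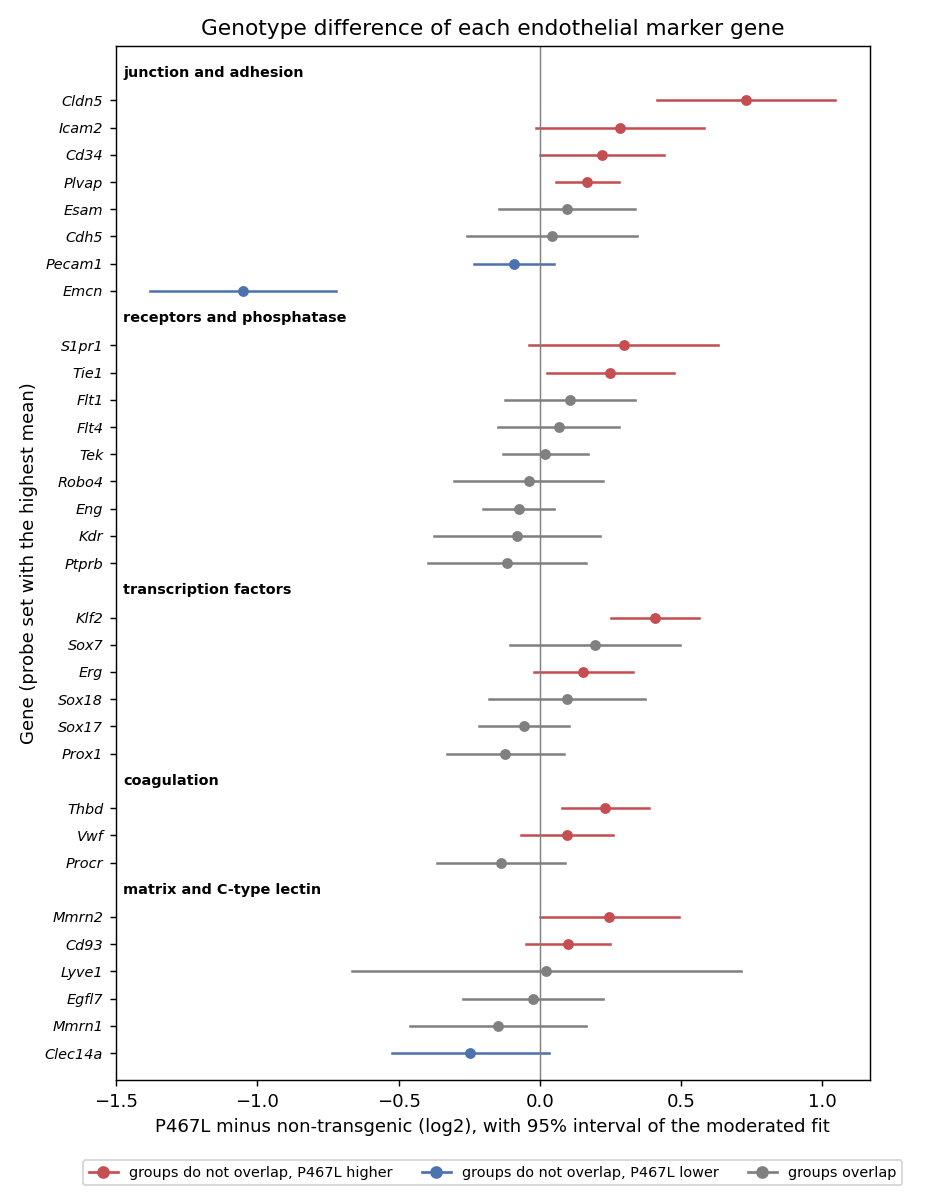
Points are the P467L minus control differences on the log2 scale with 95% intervals of the moderated fit, for 3 against 2 arrays, in red or blue where the groups did not overlap and in grey where they did. The intervals of Emcn, Cldn5, Klf2, Thbd, Plvap, Tie1 and Cd34 leave out 0 before adjustment, and no gene passed after it.

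The growth factor and guidance receptors of endothelium showed small differences in either direction. Of these 9 genes, Tie1 and S1pr1 were higher without overlap and the other 7 overlapped. Tie1, the orphan partner of the angiopoietin receptor, measured 8.69 in both control arrays and 9.08, 8.88 and 8.86 in the P467L arrays, a difference of 0.25 (SE 0.08, adjusted p = 0.616 in limma). Tek, the angiopoietin receptor itself, measured 9.36 in both control arrays and 9.36, 9.32 and 9.46 in the P467L arrays. Its difference was 0.02 (SE 0.05), with a 95% interval from -0.13 to 0.17. Ptprb, the phosphatase VE-PTP that acts on Tek and on VE-cadherin, gave -0.12 (SE 0.10) by its brightest probe set. A second bright probe set of Ptprb gave -0.36 (SE 0.15), with 10.56 and 10.80 in the control arrays and 10.18, 10.24 and 10.54 in the P467L arrays, just below them.

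The 3 VEGF receptors did not separate the groups. Kdr, the main signalling receptor for VEGF-A, measured 7.36 and 7.03 in the control arrays and 7.11, 7.11 and 7.12 in the P467L arrays, all inside the control range. Its difference of -0.08 (SE 0.11) became 0.08 without control replicate 1. Flt1, which binds VEGF-A and placental growth factor, gave 0.11 (SE 0.08), and its other 3 probe sets gave from -0.01 to 0.08. Flt4, the VEGF-C receptor of lymphatic vessels, measured 6.88 in 4 of the 5 arrays and 7.08 in P467L replicate 1. S1pr1, the receptor for sphingosine-1-phosphate that stabilises junctions, measured 7.49 and 7.79 against 8.07, 7.85 and 7.89 in P467L arrays, a difference of 0.30 (SE 0.12) with the groups 0.06 apart. It was 0.15 without control replicate 1 and 0.45 without control replicate 2. Eng, a coreceptor for BMP ligands, gave -0.08 (SE 0.05), and its second probe set gave -0.16 (SE 0.07) without overlap. Robo4, an endothelial roundabout receptor, lay below the median level of all genes and gave -0.04 (SE 0.10).

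Klf2 was the transcription factor of the list with the largest difference. It measured 10.49 and 10.48 in the control arrays and 10.98, 10.86 and 10.84 in the P467L arrays, so the groups were 0.35 apart while each varied by 0.14 or less. The difference was 0.41 (SE 0.06, 95% interval from 0.25 to 0.56; adjusted p = 0.295 in limma), or 1.33-fold. Klf2 was read by 1 probe set. Erg, the ETS factor that maintains endothelial identity, measured 9.06 and 9.00 against 9.15, 9.12 and 9.28, a difference of 0.15 (SE 0.06). A dimmer probe set of Erg gave 0.01. The SOX factors Sox7, Sox17 and Sox18, which act redundantly in vessel formation, overlapped between groups with differences of 0.20 (SE 0.11), -0.06 (SE 0.06) and 0.10 (SE 0.10).

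Among the coagulation genes, Thbd and Vwf were higher without overlap and Procr overlapped. Thbd encodes thrombomodulin, which turns thrombin toward the activation of protein C. It measured 10.78 and 10.87 in the control arrays and 11.05, 11.00 and 11.12 in the P467L arrays, a difference of 0.23 (SE 0.06, adjusted p = 0.495 in limma). Vwf, the von Willebrand factor that tethers platelets, measured 11.01 and 11.17 against 11.18, 11.20 and 11.18. The Vwf groups were only 0.01 apart and the difference was 0.10 (SE 0.06), with 0.017 when control replicate 1 was left out and 0.18 when control replicate 2 was. Procr, the protein C receptor, gave -0.14 (SE 0.08).

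Klf2 is known to raise Thbd and Nos3 and to lower Edn1, Vcam1 and Sele in endothelium, and these genes are given beside it; they were chosen after values were seen, and their relation to Klf2 was not tested. Nos3, the endothelial nitric oxide synthase, measured 9.27 and 9.38 in the control arrays and 9.76, 9.77 and 9.84 in the P467L arrays. Edn1, the precursor of the vasoconstrictor endothelin-1, measured 9.23 and 8.97 against 8.34, 8.37 and 8.03. The differences were 0.47 (SE 0.05) for Nos3 and -0.85 (SE 0.15) for Edn1, with adjusted p of 0.234 and 0.367 in limma. Vcam1, a leukocyte adhesion molecule that smooth muscle can also express, measured 9.72 and 9.65 against 10.10, 10.24 and 10.36, a difference of 0.55 (SE 0.09) and so higher where Edn1 was lower. Sele, the E-selectin of activated endothelium, lay in the lowest quartile of gene levels and overlapped, with a difference of 0.06 (SE 0.06). None of these genes passed the test.

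**Figure D4:**
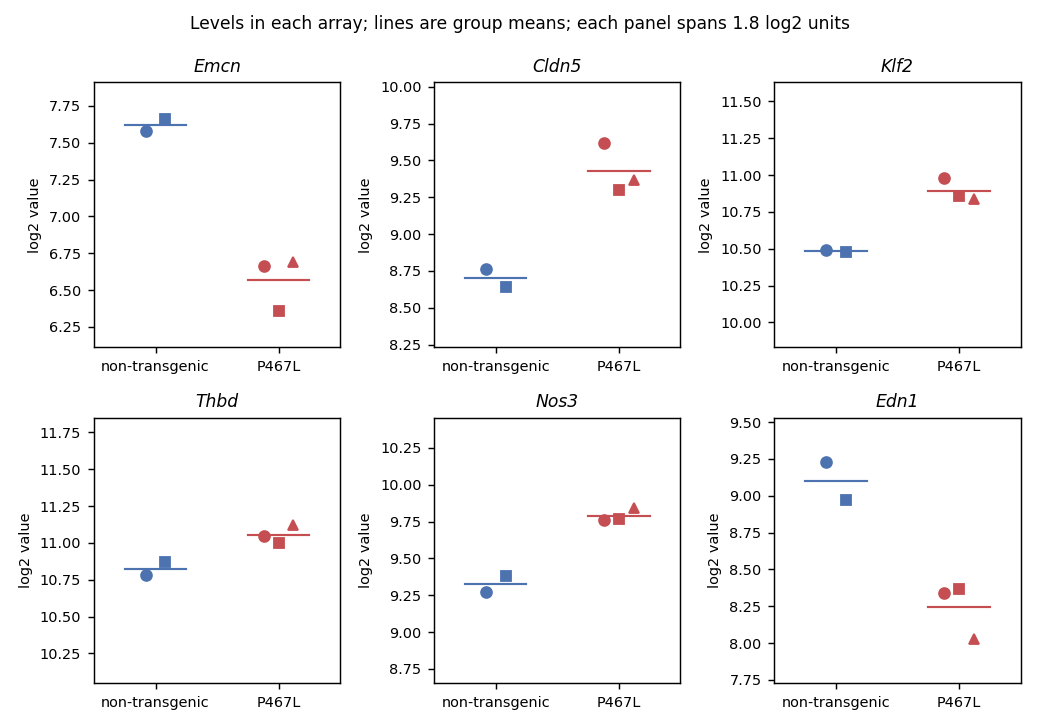
Points are log2 values in each array for Emcn, Cldn5, Klf2, Thbd, Nos3 and Edn1, lines are group means, and every panel spans the same range of log2 units. The groups are apart in each panel, with P467L lower for Emcn and Edn1 and higher for the other 4. Vcam1 and Sele, which Klf2 is known to lower, are not shown. Vcam1 was higher in P467L arrays, and the groups of Sele overlapped.

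Among the matrix and lectin genes, Mmrn2 and Cd93 were higher and Clec14a lower without overlap. Mmrn2, a matrix protein of the endothelial surface that binds both Cd93 and Clec14a, measured 9.71 and 9.93 against 9.98, 10.08 and 10.14 in P467L arrays, a difference of 0.25 (SE 0.09). Its other 3 probe sets were also higher without overlap, at 0.46 (SE 0.10), 0.35 (SE 0.11) and 0.14 (SE 0.07). All 4 probe sets of Mmrn2 thus separated the groups, more than for any other gene of the list, but 17 of the 32 genes had only 1 probe set. Probe sets of 1 gene on the same arrays are not independent readings. Cd93, a C-type lectin receptor also found on myeloid cells, measured 9.73 and 9.77 against 9.85, 9.78 and 9.92, with the groups 0.01 apart. Clec14a, a related lectin, measured 8.69 and 8.91 against 8.68, 8.49 and 8.49, a difference of -0.25 (SE 0.10) with the groups again 0.01 apart. Its second probe set gave -0.24 (SE 0.23) and overlapped. Egfl7, a protein secreted by endothelium, gave -0.02 (SE 0.09) and between -0.02 and 0.03 by its other 3 probe sets.

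The genes that mark lymphatic endothelium did not separate the groups, though with so few arrays a difference is not excluded. Lyve1, a hyaluronan receptor of lymphatic vessels and of some macrophages, measured 9.48 in both control arrays and 9.58, 9.07 and 9.86 in the P467L arrays. Its P467L SD of 0.40 was the largest of the list, and the second probe set had the same order of arrays, with 8.69, 8.06 and 9.09 against 8.58 and 8.59. Mmrn1, found in lymphatic endothelium and platelets, gave -0.15 (SE 0.11), Prox1 gave -0.12 (SE 0.08), Pdpn, a mucin-like surface protein of lymphatic vessels, 0.13 (SE 0.08) and Flt4 gave 0.07 (SE 0.08). Of 6 lymphatic genes measured, 4 of them on the endothelial list, 0 separated the groups.

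Where a gene had several probe sets they did not always agree. Of 26 further probe sets of 15 genes, 19 had the sign of the brightest one, and among the 12 at or above the median level of all genes 8 did. Sox17 is an example, with -0.06 (SE 0.06) by its brightest probe set and 0.05 (SE 0.07) by the other, and both overlapped between groups. All 5 probe sets of Cd93 were on the positive side; the second of them gave 0.18 (SE 0.15), with 9.59 in P467L replicate 1 against 9.19 in replicates 2 and 3.

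Other genes of endothelial biology were read from further lists. Of 29 measured ligands and regulators, 9 were higher and 3 lower without overlap, and 7 and 3 passed an unadjusted p of 0.05, with a median of 0.09; 0 passed after adjustment. The higher share was 31%, beside 26.4% of genes at or above the median level, where 28 of the 29 lie. Plat, tissue plasminogen activator, measured 10.28 and 10.22 against 11.45, 11.25 and 11.37, a difference of 1.11 (SE 0.07, adjusted p = 0.126 in limma). Ets2, an ETS factor that is not particular to endothelium, gave 0.62 (SE 0.03, adjusted p = 0.0954 in limma). Of 29 further endothelial genes, 7 were higher and 3 lower without overlap, and 6 and 1 passed the unadjusted level, with a median of 0.05. The higher share was 24.1%, with 19 of the 29 above the median level of all genes. Over all genes 16.1% were higher without overlap, and 6.94% were higher and 2.51% lower at the unadjusted level. Among genes at or above the median level the unadjusted shares were 11.2% and 2.76%. Podxl, a sialomucin of the luminal surface, measured 9.58 and 9.28 against 10.14, 10.11 and 10.23, a difference of 0.73 (SE 0.11).

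Single arrays moved the list as well. P467L replicate 1 was the highest of the 5 arrays for 12 of the 32 genes, and the median shift of the list from the control mean was 0.10 there, 0.01 in replicate 2 and 0.07 in replicate 3. Without that array the median difference of the list was 0.02, and the median over all genes was 0. Other single arrays moved genes whose groups did not overlap by over 1.5 times: without control replicate 1 Icam2 gave 0.18 and Mmrn2 0.14, and without control replicate 2 Clec14a gave -0.14. Without P467L replicate 2 Pecam1 gave -0.055, and without P467L replicate 3 Cd93 gave 0.065. P467L replicate 1 also stood apart over the chip: 842 probe sets were lower there than in any other array by 1 log2 unit or more, Malat1, a nuclear noncoding RNA, measured 8.03 against 9.45 to 9.87, and Neat1 10.62 against 11.75 to 12.01. Non-transgenic replicate 2 was high in stomach transcripts, with Chia1, a gastric chitinase, at 11.53 against 5.50 to 7.70 and Pgc at 11.37 against 7.00 to 8.54 for this gastric protease precursor. The summed level of the 10 stomach genes measured, over the mean of the controls, was 0.14 and 1.86 in the controls and 0.21 to 0.28 in P467L arrays. The part of either array's peculiarity in the endothelial values was not tested beyond leaving it out.

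Markers of other cells of the wall were read beside the endothelial list. Of all genes 56% were on the positive side, and 16.1% were higher and 6.55% lower without overlap. Among genes at or above the median level 26.4% were higher and 6.04% lower. The higher share was 25% for macrophage, 42.9% for fibroblast and 25% for smooth muscle markers, and differences between these shares were not tested. As summed linear level over the mean of the control arrays, the endothelial list spanned 0.98 to 1.02 in control and 1.03 to 1.10 in P467L arrays. Macrophage markers, of which 11 of 12 were on the positive side and 3 higher without overlap, spanned 0.98 to 1.02 and 1.00 to 1.28. C1qb, a complement gene of macrophages, gave 0.36 (SE 0.12), and Fcgr1, an Fc receptor, 0.24 (SE 0.11). Fibroblast markers, with 3 of 7 higher without overlap, spanned 0.98 to 1.02 and 1.04 to 1.12, with Cd248 at 0.64 (SE 0.13) and Col1a1 at 0.16 (SE 0.04). The sums of both lists thus reached at least as far up in P467L arrays as that of the endothelial list, and their part in genes shared with those cells, such as Cd34 and Cd93, was not tested.

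Platelet markers, which could accompany Vwf and Mmrn1, were on the negative side in 7 of 7 genes, 1 of them without overlap. That gene was Ppbp at -0.45 (SE 0.08), and Itga2b gave -0.18 (SE 0.14). Their sum spanned 0.98 to 1.02 and 0.81 to 1.00. Adipocyte markers, as perivascular fat holds capillaries, had 4 of 7 on the positive side, 0 without overlap and a median of 0.01. Their sum spanned 0.73 to 1.27 and 0.61 to 0.88, with Fabp4 at -0.59 (SE 0.32) and Lpl at -0.24 (SE 0.22). Cidec at 0.24 (SE 0.48), the largest positive difference of the fat markers, was named after its value was seen. The sum of the fat markers was highest in control replicate 1, and the part of fat in Emcn, a capillary gene, was not tested. Mesothelial markers had 0 of 5 without overlap and spanned 0.70 to 1.30 and 0.69 to 0.93, with Krt19 at -0.71 (SE 0.72) and Wt1 at -0.03 (SE 0.05). Krt19 measured 6.17 and 8.47 in the control arrays against 6.58 to 6.62, so its sign rests on control replicate 2, the array high in stomach transcripts. Smooth muscle markers, with 5 of 8 on the positive side, 2 higher and 1 lower without overlap, spanned 0.998 to 1.00 and 1.01 to 1.02. The 2 higher ones were Des at 0.81 (SE 0.13) and Smtn at 0.16 (SE 0.04), and the lower one was Myocd at -0.36 (SE 0.15). Acta2, at 14.79 to 14.83, and Tagln, at 14.65 to 14.68, weigh most in the smooth muscle sum. Both lie near the highest values of the arrays, 14.94 to 14.99, so the narrow range of that sum says little of the dimmer markers. A level of 0 is not defined on these arrays; 1 macrophage, 1 adipocyte, 1 mesothelial and 0 platelet, fibroblast or smooth muscle markers lay in the lowest quartile of gene levels.

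**Figure D5:**
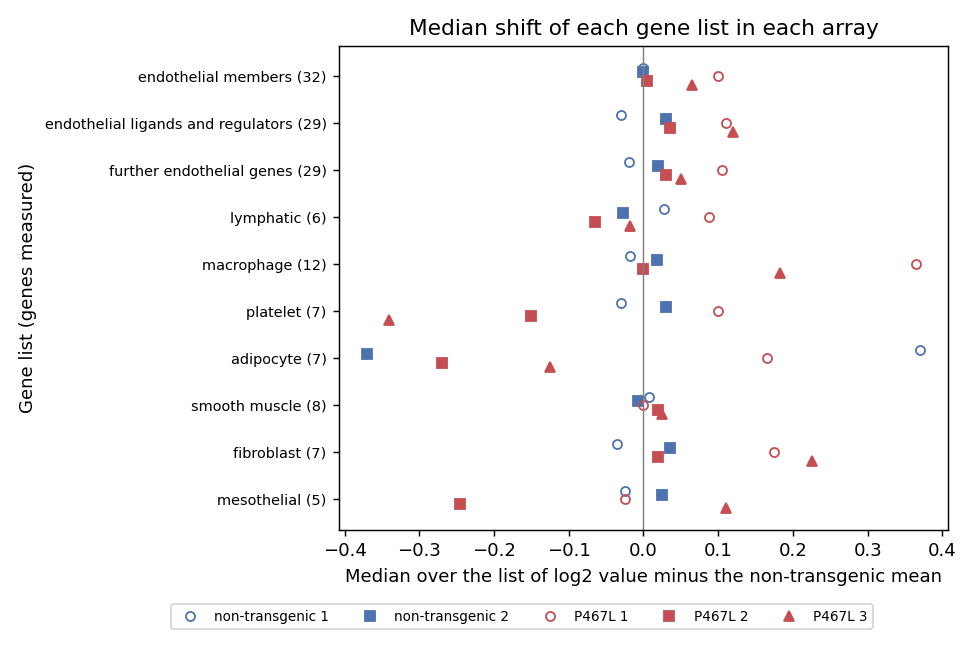
For each gene list the symbols give, array by array, the median over its genes of the log2 value minus the control mean, with the number of genes in brackets. The endothelial list stays between 0 and 0.10 in every array, while the adipocyte list spreads from -0.37 to 0.37 between the 2 control arrays alone.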

How the data were processed

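The deposited values were log2 probe set summaries made by the authors; per the submitters' processing notes the tools were RMA and Affymetrix Power Tools, of unstated version. RMA brings the arrays toward one distribution, which removes much of any shift common to most transcripts. The deposited values still had array medians of 6.25 in both controls and 6.17, 6.23 and 6.23 in P467L replicates 1, 2 and 3. Values carried 2 decimals. Of 45037 probe sets (64 controls left out), 34945 had 1 gene in the platform annotation, 932 had more than 1 and stayed unnamed, and 9160 had no gene listed. Symbols were compared by gene number with the RefSeq gene table of GRCm38.p6: 34741 of the 34945 matched, and 0 symbols differed.

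P467L arrays were set against controls in limma 3.58.1 under R 4.3.3 (two-sided lmFit and eBayes without covariates), and p-values were adjusted after Benjamini-Hochberg over the whole 45037 at a threshold of 0.05. The total degrees of freedom were 4.23 per test. The pipeline was tested on simulated data. The sources used here name no batch. The number of arrays limits the precision. All 32 genes were named; array values were printed for genes whose groups did not overlap, that differed by at least 0.4, or that are defining markers, with the 2 smallest p of each companion list. Ly6c1, Ccl21a, Gp1ba, Plin1 and Cfd were listed and not analysed here. The members, lists and alternatives were chosen with earlier results of these data known.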

Additional observations from a re-analysis of the deposited data

How the results depend on the processing

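The count of endothelial genes past an adjusted p of 0.05 stayed at 0 under every alternative but array weights, which called 4 of them (Emcn, Klf2, Cldn5 and Plvap), put 13 past an unadjusted p of 0.05 and took the median difference to 0.00603. That setting also called 2245 probe sets over the chip and put 12941 of the 45037 past an unadjusted p of 0.05. Its estimation stopped before it converged. Elsewhere the chip-wide count of 0 became 15 with median centring, 10 with 1 probe set per gene tested, 7 with the mean of a gene's probe sets and 17 at a threshold of 0.10. The replicate number was tried as a block, although the labels only number the pools: deviations of same-numbered arrays correlated at 0.11 and 0.01, and the fit with the replicate block called 0 probe sets. Under that block the differences of Tek, Robo4, Egfl7 and Lyve1, none of them called, turned sign to -0.02, 0.035, 0.005 and -0.155. The block changed no other direction and no call. Only the P467L group has a replicate 3, so under the block that array added nothing to a difference. The differences under the block are therefore those of the fit without P467L replicate 3, and the 2 settings are not separate checks of them. A second quantile normalization gave -0.034 for Tek, 0.011 for Robo4 and -0.033 for Lyve1, median centring 0.017 for Egfl7, and array weights -0.039 for Tek and -0.40 for Lyve1. Leaving out each array in turn, the median of the list ran from 0.0225 without P467L replicate 1 to 0.0975 without P467L replicate 3. Single differences that changed sign over these fits ran from -0.05 to 0.115 for Cdh5, -0.25 to 0.083 for Kdr, -0.0033 to 0.22 for Flt1 and -0.02 to 0.05 for Tek. For Robo4 they ran from -0.10 to 0.035, for Egfl7 from -0.14 to 0.097 and for Lyve1 from -0.155 to 0.24. Without both control replicate 2 and P467L replicate 1, 24 genes did not overlap (16 higher, 8 lower), with 3 arrays left to compare. There 11 of the listed genes passed the unadjusted level, and the median was 0.03, against 0 over all genes. Only 1 control array remains, and groups of fewer arrays separate more readily. Neither count therefore shows a stronger separation than the full set of arrays. The share of all genes without overlap was not counted for this fit. In that fit Cdh5 gave -0.05, Sox17 0.015, Egfl7 0.06 and Lyve1 -0.015. The cause of these shifts was not tested. With 2 control arrays the spread of the controls is poorly known, and several genes read the same value to 2 decimals in both.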

Other observations

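Sphk1 and Spns2, which make and export the ligand of S1pr1, were singled out after their values were seen, and other genes of that pathway were not read. Sphk1, the kinase that makes the lipid, measured 7.01 and 7.23 in the control arrays and 7.71, 7.55 and 7.64 in the P467L arrays, a difference of 0.51 (SE 0.09). Spns2, its endothelial exporter, measured 7.33 and 7.32 against 7.51, 7.49 and 7.53, a difference of 0.19 (SE 0.03). The groups did not overlap in either gene, and neither passed the test, with adjusted p of 0.378 and 0.395 in limma.

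The ligands of the receptors on the list went both ways, and these too were singled out after their values were seen. Pgf, the placental growth factor that binds Flt1, gave 0.60 (SE 0.12), with 7.14 and 7.45 against 7.87, 7.81 and 7.99. Angpt2, the Tek ligand that endothelium itself releases, gave -0.30 (SE 0.06), with 9.41 and 9.37 against 9.01, 9.16 and 9.09. Vegfd, a ligand of Flt4, gave -0.43 (SE 0.15), and Vegfa gave -0.15 (SE 0.09) with overlapping groups. Vegfb gave 0.26 (SE 0.16) with the groups 0.01 apart. Groups overlapped for Vegfc at 0.08 (SE 0.09) and Angpt1 at -0.15 (SE 0.13). Gja4, the connexin 37 of arterial endothelium, gave 0.59 (SE 0.13), and Bmx, a kinase of arterial endothelium, -0.41 (SE 0.12). None of these passed the test after adjustment.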
